A study of Mus musculus with 16 samples.

Results

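The 4 arrays described here measured gene expression in R7T1 mouse beta cells 2 h after treatment. Of these arrays, 2 came from cells given BayK8644, once alone and once together with exendin-4, and 2 came from cells without it, once with the DMSO vehicle and once with exendin-4 alone. They were chosen by the time in their titles, and they are 4 of the 16 arrays of the series, which sampled the same 4 treatments at 0.5, 2, 6 and 24 h with 1 array each. The series is titled for small molecules that expand beta cells, and the comparison here asks which transcripts had changed 2 h after BayK8644 was added. The labels write the compound as BayK8644(2a) without explaining 2a, it was taken to be BayK8644, and the sources used here give no doses. R7T1 is a reversibly transformed mouse beta-cell line, and the sources used here do not state whether the transforming gene was on or off. Nothing states that the cultures behind the arrays were separate, so a p-value reflects spread among arrays that may be technical.

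BayK8644 is a dihydropyridine that favours the open state of L-type voltage-gated calcium channels, the channels through which calcium enters a beta cell when it is depolarised. Exendin-4 is a peptide agonist of the GLP-1 receptor, which raises cAMP. In excitable cells calcium entry activates CREB, calcineurin and the MAP kinase cascade, and these switch on immediate-early transcription factors such as Fos, Egr1, Nr4a1 and Npas4. A later group of genes then encodes proteins that restrain the same signals, among them MAP kinase phosphatases, Sprouty proteins, Nab corepressors and the RGK GTPases that hold calcium channels back.

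The level of a gene is given as log2 of its deposited intensity. The difference for BayK8644 is the mean of the 2 arrays with it minus the mean of the 2 without it, with limma's standard error (SE, n = 2 arrays against 2), and a gene was called where its Benjamini-Hochberg adjusted p over all 10610 genes was below 0.05. A gene is reported only where BayK8644 minus DMSO and the combination minus exendin-4 had the same sign, as they had for 6143 of the 10610 genes (57.9%). Each treatment had 1 array, so the error came from the misfit of an additive model of the agents over all 4 times. The gene lists used below were chosen with earlier results of these data known. The share of a list that was called is therefore a description and no test of the list. Of all genes tested 1.15% rose and 0.481% fell.

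Among called genes, many more were higher with BayK8644 at 2 h than lower. Over all genes tested 46.2% had a positive difference and 53.8% a negative one. The 20 largest rises included signal-responsive transcription factors, inhibitors of the MAP kinase pathway, a GTPase that restrains calcium channels, and also the cytokine gene Il4 and the secreted products Tac1, Adm and Bmp2. In all, 122 genes rose (1.15% of those tested) and 51 fell (0.481%), and 1273 genes had an unadjusted p below 0.05. Rises of more than 1 log2 unit were seen in 31 genes, rises between 0.5 and 1 in 65, and smaller ones in 26. Falls were smaller, with 4 genes beyond 1 log2 unit, 25 between 0.5 and 1, and 22 below that. The median rise was 0.69 and the median fall -0.52, while the median over all genes tested was -0.01. In these RNA samples of whole cultures, fewer cells with a transcript and less of it per cell cannot be told apart.

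In each of the 173 called genes both arrays with BayK8644 lay on the same side of both arrays without it, a pattern that 4404 of all 10610 genes (41.5%) also showed. The count of called genes was lower with 1 array of 2 h left out. That was largely fixed in advance, since 1 pair then gives the difference, with a larger error and 3 residual degrees of freedom. Leaving out either array of a pair leaves the same other pair, so the 4 omissions amount to 2 comparisons. A call lost in this way does not show that the gene depended on a given array. The filter (log2 of 4 or more on at least 2 arrays) was not applied anew when an array was left out, so the same 10610 genes were tested. Rrad, named below, reached that level only on the 2 arrays of 2 h with BayK8644. Without either of them Rrad would not have passed the filter, so for Rrad those 2 omissions do not test the call. With either the DMSO or the BayK8644 array left out, when the difference is that of the pair in exendin-4, 47 genes were called, of which 42 were among the 173. With either the exendin-4 or the combination array left out it was 18 genes, all among the 173. Of the 69 called genes chosen to be named by rule, 15 kept an adjusted p below 0.05 whichever array of 2 h was left out: Bmp2, Dusp4, Dusp6, Etv5, Gem, Il4, Maff, Msmo1, Nab1, Nab2, Nr4a1, Rhou, Rrad, Spry1 and Vgf. A further 12 lost it without some arrays and 42 lost it without any 1 of the 4.

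**Figure D1:**
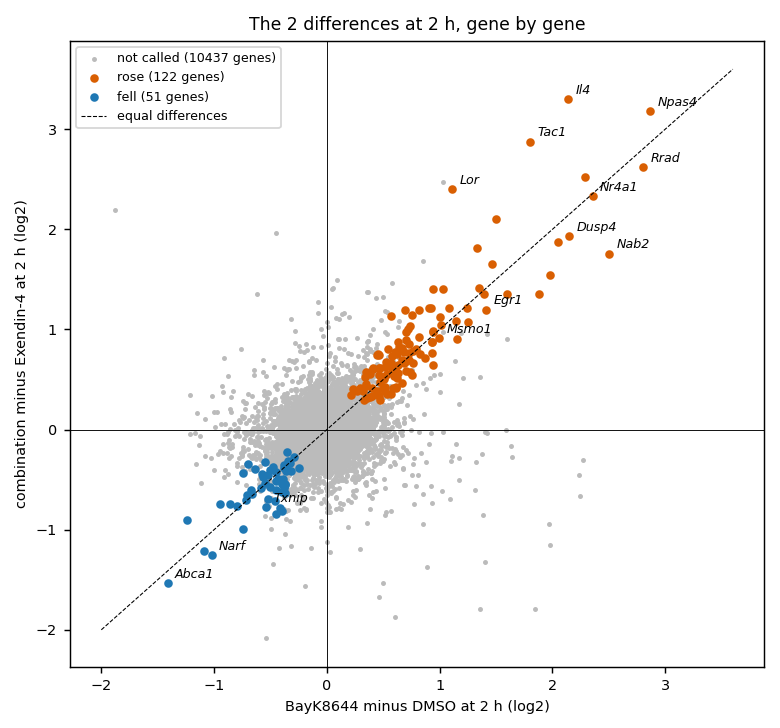
Each point is 1 of 10610 genes, with the log2 difference BayK8644 minus DMSO at 2 h on the x axis and the combination minus exendin-4 on the y axis; orange points are the 122 genes that rose, blue points the 51 that fell, and grey points were not called. The called genes lie in the upper right and lower left, where both differences have the same sign, and grey points in the upper left and lower right have opposite signs and are not reported.

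**Figure D2:**
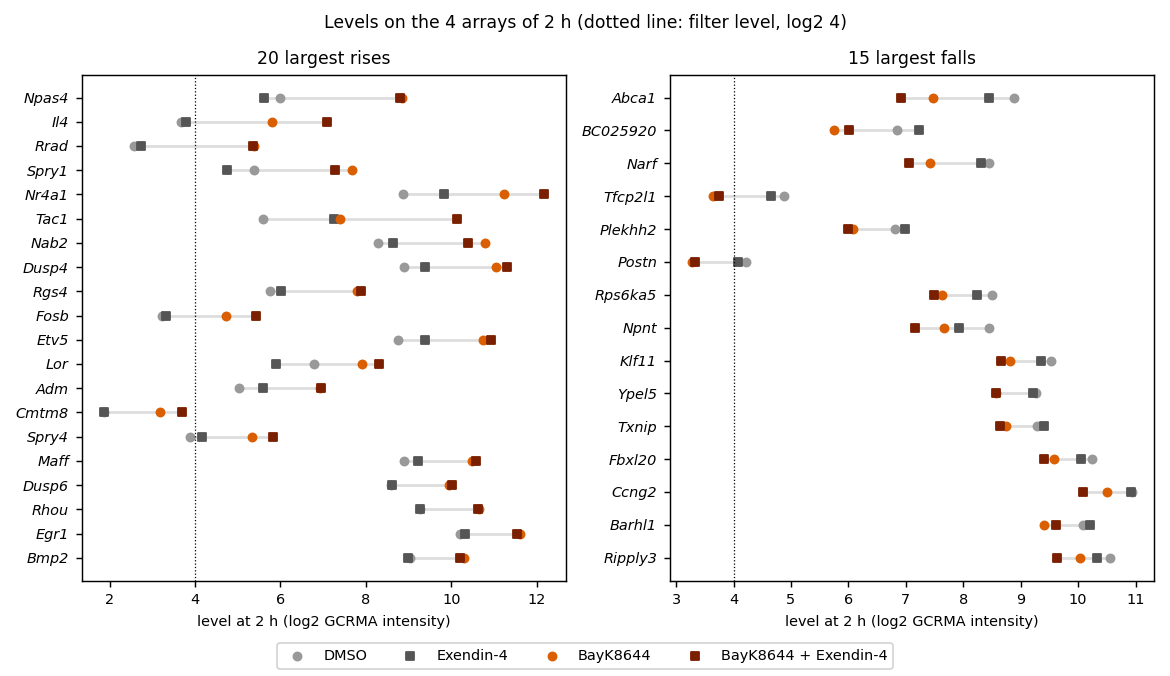
Log2 GCRMA intensity at 2 h on each of the 4 arrays, for the 20 largest rises (left) and the 15 largest falls (right), with circles for arrays without exendin-4 and squares for arrays with it; grey symbols lack BayK8644 and coloured symbols have it. Within each gene the coloured symbols lie on one side of the grey ones, and the dotted line marks the filter level of log2 4.

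Among the immediate-early transcription factors, Npas4 had the largest rise of any gene at 2 h. Npas4 is a transcription factor induced by calcium entry in neurons and beta cells. Its level was 5.99 with DMSO, 8.86 with BayK8644, 5.62 with exendin-4 and 8.80 with the combination. Both arrays with BayK8644 stood about 3 log2 units above both arrays without it, and the arrays with exendin-4 resembled their counterparts without it. The difference was 3.02 ± 0.28 (SE), with an adjusted p of 0.000946, and the adjusted p became 0.0569 without the exendin-4 array and 0.0575 without the combination array. Nr4a1, an orphan nuclear receptor of the early response, was at 8.88 with DMSO, 11.23 with BayK8644, 9.84 with exendin-4 and 12.17 with the combination. Its 4 levels formed steps, since the arrays with exendin-4 were also higher than their counterparts, by 0.95 ± 0.08 (SE) with an adjusted p of 0.0102. The difference for BayK8644 was 2.34 ± 0.08 (SE, adjusted p = 3.54e-06), the smallest p of any gene. Of the 3 measured Nr4a receptors Nr4a1 alone was called, and Nr4a2 differed by -0.13 ± 0.14 (adjusted p = 0.803).

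The 11 measured AP-1 genes, whose products form the Fos and Jun dimers and their Maf relatives, held 3 rises (27.3%) and 1 fall (9.09%), with a median of 0.34. Of all genes tested 1.15% rose and 0.481% fell. Maff, a small Maf protein, was at 8.89 with DMSO, 10.49 with BayK8644, 9.22 with exendin-4 and 10.57 with the combination. The arrays with BayK8644 were within 0.1 log2 units of each other and clearly above the rest, and the difference was 1.48 ± 0.13 (SE, adjusted p = 0.000831). Fosb was at 3.23 with DMSO, 4.73 with BayK8644, 3.32 with exendin-4 and 5.42 with the combination, a difference of 1.80 ± 0.31 (adjusted p = 0.0229). Both of its lower arrays were under the filter level of log2 4, so the floor of the method sets the size of that rise in part. Fos itself was at 9.68, 10.41, 9.80 and 10.49 on the DMSO, BayK8644, exendin-4 and combination arrays. That was a modest rise of 0.71 ± 0.10 (adjusted p = 0.00852) with no overlap between the arrays with and without BayK8644. Jun, the usual partner of Fos, went the other way, from 13.54 with DMSO to 13.29 with BayK8644 and from 13.55 with exendin-4 to 13.17 with the combination, and fell by 0.32 (SE 0.06, adjusted p = 0.0496). The calls of Fosb, Fos and Jun were lost whichever of the 4 arrays was left out, with adjusted p between 0.124 and 0.307, 0.132 and 0.149, and 0.175 and 0.464. Jund, the member with the highest level that was not called, differed by 0.06 ± 0.09 (adjusted p = 0.889). Fosl2 and Junb, named after their values were seen, had the largest differences not called, 1.25 and 0.62 (adjusted p = 0.0543 and 0.0622). A positive difference was seen in 90.9% of the list, against 46.2% of all genes tested.

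The promoter of Maff is printed here because it holds a full cAMP response element (CRE, TGACGTCA, in capitals), the motif that CREB binds. The window runs from 250 bases before to 50 bases after the RefSeq start, at chr15:79347270-79347569 on the plus strand of GRCm38.p6, and the match begins at position -29.
Maff: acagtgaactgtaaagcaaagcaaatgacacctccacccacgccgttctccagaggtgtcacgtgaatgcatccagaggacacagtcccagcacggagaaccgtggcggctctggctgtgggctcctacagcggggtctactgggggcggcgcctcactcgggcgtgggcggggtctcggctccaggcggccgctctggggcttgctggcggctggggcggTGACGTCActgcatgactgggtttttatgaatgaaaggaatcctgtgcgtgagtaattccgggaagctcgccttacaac
RefSeq windows were matched for 139 of the 173 called genes and for 8698 of all genes tested. Searched on both strands, TGACGTCA was in the windows of 4 of the 96 genes that rose (4.17%), namely Atg16l2, Cdc14b, Maff and Retreg1, against 3.82% of all genes tested with a window. It was in 0 of the 43 genes with a window that fell. The share among the genes that rose was near that of all genes tested.

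Egr1, Nab1 and Nab2 each rose at 2 h. Egr1 is a zinc finger factor of the early response, and Nab1 and Nab2 are corepressors that bind Egr proteins and limit their activity. Egr1 was at 10.19 with DMSO, 11.61 with BayK8644, 10.33 with exendin-4 and 11.53 with the combination, a difference of 1.31 ± 0.13 (SE, adjusted p = 0.00174). The arrays with BayK8644 were close to each other and above both others, though the adjusted p was 0.0516 without the DMSO array and 0.0525 without the BayK8644 array. Nab2 was at 8.29, 10.79, 8.64 and 10.40 in the same order, a difference of 2.13 ± 0.16 (adjusted p = 0.00041). Nab1 was at 9.73, 10.65, 9.53 and 10.75, a difference of 1.07 ± 0.10 (adjusted p = 0.000838). For both corepressors the 2 arrays with BayK8644 lay far above the 2 without it. Of the 4 measured members of this list 3 rose (75%, against 1.15% of all genes tested) and 0 fell, with a median of 1.19.

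The Nab1 promoter is shown because Nab1 encodes an Egr-binding corepressor and its window holds an Egr site (GCGGGGGCG, in capitals). It lies at chr1:52500399-52500698 on the minus strand of GRCm38.p6, and the match begins at position -38.
Nab1: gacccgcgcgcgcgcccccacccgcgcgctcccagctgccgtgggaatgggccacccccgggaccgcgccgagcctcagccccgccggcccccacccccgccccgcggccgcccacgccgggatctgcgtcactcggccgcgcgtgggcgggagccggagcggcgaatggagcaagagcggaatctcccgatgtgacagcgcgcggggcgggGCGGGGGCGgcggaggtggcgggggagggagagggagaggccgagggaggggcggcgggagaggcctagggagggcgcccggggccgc
Among genes with a window, GCGGGGGCG was found, on either strand, in 12 of the 96 that rose (12.5%). It was found in 3 of the 43 that fell (6.98%) and in 6.71% of all genes tested with a window. The 12 were Baiap2, Cbarp, Fosb, Klf4, Mid2, Nab1, Nfkb2, Nr2f6, Nr4a1, Rhpn2, Tent5a and Tnfrsf12a. The motif is rich in G and C, the base composition of the windows was not matched, and a match is not evidence of binding.

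A list of other early response genes had 19 measured members, with a median of 0.21. Of these 5 rose (26.3%, against 1.15% of all genes tested) and 0 fell. Besides Npas4 these were Trib1, a pseudokinase, by 0.74 ± 0.12 (adjusted p = 0.021), Ier2 by 0.57 ± 0.11 (adjusted p = 0.0318), Plk3, a polo-like kinase, by 0.52 ± 0.09 (adjusted p = 0.0261), and Klf4, a Krüppel-like factor, by 0.45 ± 0.09 (adjusted p = 0.0486). These 4 rises were small beside that of Npas4, and each lost its call whichever array was left out, with adjusted p between 0.144 and 0.404. Klf10, the most highly expressed member that was not called, differed by 0.17 ± 0.08 (adjusted p = 0.459).

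Feedback inhibitors of the MAP kinase pathway were prominent among the rises. Of 19 measured members of their list 7 rose (36.8%, against 1.15% of all genes tested) and 0 fell, with a median of 0.29. Like the other lists, this one was chosen with earlier results of these data known. Spry1, a Sprouty protein that restrains growth factor signalling upstream of ERK, was at 5.37 with DMSO, 7.66 with BayK8644, 4.75 with exendin-4 and 7.28 with the combination, a difference of 2.41 ± 0.14 (SE, adjusted p = 0.000103). Dusp4, a nuclear phosphatase of ERK and other MAP kinases, was at 8.89, 11.04, 9.38 and 11.31 in that order, a difference of 2.04 ± 0.09 (adjusted p = 1.25e-05). Dusp6, a cytoplasmic phosphatase of ERK, was at 8.60, 9.94, 8.61 and 10.02, a difference of 1.38 ± 0.09 (adjusted p = 0.000158). For all 3 the arrays with BayK8644 stood more than 1 log2 unit above those without it, and the calls held with any 1 array left out. Spry4 rose by 1.56 ± 0.14 (adjusted p = 0.000946), from a DMSO level of 3.88 and an exendin-4 level of 4.17, close to the filter level. Spry2 rose by 1.15 ± 0.13 (adjusted p = 0.00312), from 7.78 to 8.86 and from 7.59 to 8.81. The adjusted p of Spry4 became 0.0517 and 0.0524 without the exendin-4 and the combination array, and that of Spry2 lay between 0.052 and 0.111 without 1 array. Dusp5, a nuclear ERK phosphatase, and Spred2, a Sprouty-related inhibitor, completed the group with rises of 0.73 ± 0.07 and 0.68 ± 0.10. For these last genes leaving out single arrays was not examined.

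Other members of the same list were not called. Dusp1, Dusp7 and Dusp8 had differences of -0.09, -0.32 and -0.27, and Spred1 had one of 0.37. Among the Ets factors of the PEA3 family, which act downstream of ERK, Etv5 was at 8.76 with DMSO, 10.74 with BayK8644, 9.39 with exendin-4 and 10.94 with the combination. Both arrays with BayK8644 were above both without it, and the difference was 1.76 ± 0.11 (SE, adjusted p = 0.000133). Etv4, its closest relative on the list, had a difference of 1.18 ± 0.35 that was not called (adjusted p = 0.171), at levels between 3.10 and 4.96. The 3 measured genes of this list held 1 rise (33.3%, against 1.15% of all genes tested), with a median of 1.18. Rgs4, which speeds the shut-off of G-protein signals, was at 5.76, 7.80, 6.02 and 7.89 on the DMSO, BayK8644, exendin-4 and combination arrays. It rose by 1.96 ± 0.39 (adjusted p = 0.0449), but with 1 array left out its adjusted p lay between 0.298 and 0.348. It was the 1 called gene of 11 measured RGS genes (9.09%, against 1.15% of all genes tested that rose), whose median was 0.09.

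The RGK GTPases, small GTP-binding proteins that bind calcium channel beta subunits and reduce calcium current, rose as a trio, while none of the channel subunits was called. Rrad was at 2.57 with DMSO, 5.38 with BayK8644, 2.73 with exendin-4 and 5.35 with the combination. Both lower values were near the floor of the method, and both arrays with BayK8644 stood well above it at almost the same level. Those 2 arrays alone brought Rrad past the filter, so it had to differ in order to be tested; its call held with no filter as well. The difference was 2.71 ± 0.15 (SE, adjusted p = 5.76e-05). Rem2, an RGK protein studied in beta cells, was at 7.98, 8.99, 8.05 and 9.17, a difference of 1.07 ± 0.12 (adjusted p = 0.0025), and its adjusted p became 0.0985 without the exendin-4 array and 0.102 without the combination array. Gem was at 10.42, 11.25, 10.49 and 11.25, a difference of 0.79 ± 0.07 (adjusted p = 0.000831). For Rem2 and Gem too the arrays with BayK8644 lay above the others without overlap. The pore subunits of the L-type channels that BayK8644 binds, Cacna1c and Cacna1d, had differences of -0.16 ± 0.10 (adjusted p = 0.626) and -0.24 ± 0.17 (adjusted p = 0.673). The list of RGK GTPases and channel subunits had 14 measured genes, with a median of 0.02. It held 3 rises (21.4%, against 1.15% of all genes tested) and 0 falls. Of these 3, Rrad had to differ in order to be tested, so the share is in part fixed by the filter. Cbarp, which encodes another protein that binds channel beta subunits and lowers calcium current, is on no list and rose by 0.60 ± 0.07 (adjusted p = 0.004); it is named here after its value was seen. None of 14 measured genes of calcium pumps, stores and buffers was called (median -0.07), while 1.15% of all genes tested rose and 0.481% fell. Of 11 measured potassium channel genes 9.09% rose. Kcnn2, a calcium-activated potassium channel, rose by 0.65 ± 0.12 (adjusted p = 0.0266, between 0.177 and 0.324 with 1 array left out) and was the 1 called gene of 11 potassium channel genes.

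Secreted products were among the larger rises. Tac1, the precursor of substance P and other tachykinins, was at 5.59 with DMSO, 7.40 with BayK8644, 7.26 with exendin-4 and 10.14 with the combination. Its array with BayK8644 alone and its array with exendin-4 alone were almost level, and the combination stood far above both. The difference for BayK8644 was 2.34 ± 0.30 (SE, adjusted p = 0.00581), and that for exendin-4 was 2.20, which was not called (adjusted p = 0.11). Vgf, a granin-like precursor of neuropeptides, was at 9.91, 11.16, 10.45 and 11.52, a difference of 1.16 ± 0.08 (adjusted p = 0.000282). Adm, the vasodilator adrenomedullin, was at 5.03, 6.92, 5.59 and 6.95, a difference of 1.62 ± 0.31 (adjusted p = 0.0354). In both the arrays with BayK8644 were above those without it. The call of Tac1 was lost without the exendin-4 array (adjusted p = 0.154) or the combination array (0.157), and that of Adm with any 1 array left out (0.207 to 0.381), whereas that of Vgf held. These 3 were the rises among 15 measured secreted peptides and hormones (20%, against 1.15% of all genes tested; median 0.03, 0 falls). Iapp, the islet amyloid polypeptide of beta cells, differed by 0.08 ± 0.05 (adjusted p = 0.615), and Ins2 is not reported because its difference had opposite signs in the 2 pairs.

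Il4, a cytokine gene known in T cells as a target of calcineurin and NFAT, was at 3.66 with DMSO, 5.80 with BayK8644, 3.79 with exendin-4 and 7.09 with the combination. The lower arrays were under the filter level, so the floor sets the size of the rise in part, and the combination array was the highest. The difference was 2.72 ± 0.25 (SE, adjusted p = 0.000838), and the call held without any 1 array. The other 7 measured members of the calcineurin and NFAT list were not called, and Rcan1, an inhibitor of calcineurin that is often used as a readout of it, was at 9.67, 9.66, 9.67 and 9.67 (difference -0.01 ± 0.08, adjusted p = 0.995). All 5 leukocyte markers examined were below the filter level on all 4 arrays. Of 13 measured CREB and cAMP targets Tac1, Fosb, Vgf and Gem rose (30.8%, against 1.15% of all genes tested). Fosb was brought past the filter by arrays with BayK8644, as stated above, so that share depends in part on the filter. Among the same targets Pde4b, a phosphodiesterase that breaks down cAMP, fell (7.69%, against 0.481% of all). Pde4b was at 10.19 with DMSO, 9.64 with BayK8644, 10.70 with exendin-4 and 10.16 with the combination. It fell by 0.54 (SE 0.07, adjusted p = 0.00751), a call lost with any 1 array left out (0.121 to 0.146). Bmp2, a secreted ligand of the BMP pathway, was at 9.04, 10.29, 8.98 and 10.20 (difference 1.23 ± 0.11, adjusted p = 0.000831). Id1, an inhibitor of differentiation that BMP signals induce in many cells, was at 11.16, 11.87, 11.34 and 12.34 (difference 0.86 ± 0.09, adjusted p = 0.00197). Both stood higher on the arrays with BayK8644, although the adjusted p of Id1 became 0.0863 without the exendin-4 array and 0.0905 without the combination array. The Id and TGF-beta feedback list held the rise of Id1 as its 1 call among 7 measured genes (14.3%, against 1.15% of all genes tested).

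Genes of cholesterol synthesis rose, and the 1 called efflux gene fell. Of 20 measured genes of sterol biosynthesis 10 rose (50%, against 1.15% of all genes tested) and 0 fell. A positive difference was seen in 19 of the 20 (against 46.2% of all genes tested), and the median was 0.44. Msmo1, which removes methyl groups from lanosterol intermediates, was at 11.29 with DMSO, 12.28 with BayK8644, 11.40 with exendin-4 and 12.31 with the combination. Its 2 arrays with BayK8644 were nearly level and 1 unit above the others, a difference of 0.95 ± 0.08 (SE, adjusted p = 0.000798) that held with any 1 array left out. Idi1, the isopentenyl diphosphate isomerase, rose by 0.89 ± 0.10 (adjusted p = 0.00228), and Fdft1, the squalene synthase, rose by 0.75 ± 0.09 (adjusted p = 0.00409). Hmgcs1, the HMG-CoA synthase at the start of the pathway, was at 13.02, 13.76, 13.07 and 13.65, a difference of 0.66 ± 0.07 (adjusted p = 0.00247). Cyp51, which demethylates lanosterol, rose by 0.65 ± 0.07 (adjusted p = 0.00243). These last genes also showed no overlap between arrays with and without BayK8644. Without 1 array the adjusted p of Hmgcs1 and Cyp51 lay between 0.0517 and 0.0757, and Idi1 and Fdft1 lost their calls without the exendin-4 array (0.0933 and 0.146) or the combination array (0.095 and 0.146).

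The remaining rises of that list were Sqle, the squalene epoxidase (0.60), Nsdhl (0.52), Srebf2, the transcription factor of the pathway (0.51), Lss, the lanosterol synthase (0.47), and Insig1, which holds SREBP proteins in the endoplasmic reticulum (0.40). Their adjusted p were 0.000831, 0.00902, 0.0243, 0.0348 and 0.0323 in that order. Leaving out single arrays was not examined for them. Ebp, the most highly expressed member that was not called, differed by 0.10 ± 0.08 (adjusted p = 0.723). Abca1, the membrane transporter that exports cholesterol, had the largest fall of any gene. It was at 8.89 with DMSO, 7.48 with BayK8644, 8.45 with exendin-4 and 6.92 with the combination. Both arrays with BayK8644 lay more than 0.9 log2 units below both arrays without it, and the combination was lowest. Abca1 fell by 1.47 (SE 0.18, adjusted p = 0.00403), but without 1 array its adjusted p lay between 0.0693 and 0.126. It was the 1 called gene of 9 measured LXR targets and efflux genes (11.1%, against 0.481% of all genes tested that fell), whose median was -0.05. Abcg1, a related transporter, differed by -0.59 ± 0.14 and was not called (adjusted p = 0.0987).

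The Hmgcs1 promoter is shown as the 1 sterol gene that rose whose window held a sterol regulatory element (SRE, TCACCCCAC, in capitals), the motif bound by SREBP factors. It lies at chr13:119690101-119690400 on the plus strand of GRCm38.p6, and the match begins at position -137.
Hmgcs1: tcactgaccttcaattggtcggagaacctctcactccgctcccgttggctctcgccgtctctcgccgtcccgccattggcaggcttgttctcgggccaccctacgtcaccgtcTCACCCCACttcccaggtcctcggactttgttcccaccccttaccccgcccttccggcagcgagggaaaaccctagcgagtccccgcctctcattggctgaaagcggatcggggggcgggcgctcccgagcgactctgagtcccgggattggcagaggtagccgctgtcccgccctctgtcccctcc
Of the 10 sterol genes that rose, 8 had a RefSeq window, and TCACCCCAC was in 1 of them on either strand. It was in a window of 0.644% of all genes tested with a window. These exact letters are only one form of the element, and their absence from a window says nothing about the factor.

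A few stress genes rose slightly. Of 25 measured genes of the integrated stress response and amino acid metabolism, 4 rose (16%, against 1.15% of all genes tested) and 0 fell. A positive difference was seen in 23 (92%, against 46.2% of all genes tested), with a median of 0.25. Cebpb, a basic leucine zipper factor, rose by 0.59 ± 0.08 (SE, adjusted p = 0.00977), Chac1, which degrades glutathione, by 0.57 ± 0.07 (adjusted p = 0.00268), Ddit3, the factor CHOP, by 0.45 ± 0.07 (adjusted p = 0.0141), and Mthfd2, a mitochondrial enzyme of folate metabolism, by 0.41 ± 0.08 (adjusted p = 0.0354). Ddit3 went from 11.62 with DMSO to 12.16 with BayK8644 and from 11.90 with exendin-4 to 12.26 with the combination. The arrays did not overlap, but the rise in exendin-4 was the smaller. Asns, asparagine synthetase, differed by 0.16 ± 0.05 (adjusted p = 0.237). Of 22 measured genes of ER chaperones and ER-associated degradation Dnajb9, an ER co-chaperone, rose by 0.51 ± 0.10 (adjusted p = 0.0452) and Xbp1, a transcription factor of the unfolded protein response, by 0.38 ± 0.06 (adjusted p = 0.0198). The probe sets of Xbp1 differed in sign. The median of that list was 0.08, and 9.09% of it rose, against 1.15% of all genes tested. All 6 of these calls were lost whichever of the 4 arrays was left out, with adjusted p between 0.0658 and 0.431.

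Of the cell cycle genes, 1 cyclin rose and 2 mitosis genes fell at 2 h. Ccnd2, the D-type cyclin that drives entry into the cycle in beta cells, was at 12.54 with DMSO, 13.05 with BayK8644, 12.84 with exendin-4 and 13.34 with the combination. It rose by 0.51 ± 0.06 (SE, adjusted p = 0.00247, between 0.0618 and 0.095 without 1 array) and was the 1 called gene among 29 measured genes of G1/S and replication (3.45%, against 1.15% of all genes tested that rose), whose median was -0.06. The arrays with BayK8644 were above those without it in both pairs. Ccnd1 differed by 0.08 ± 0.47 (adjusted p = 0.984). Of 29 measured G2/M and mitosis genes 27 had a negative difference (93.1%, against 53.8% of all genes tested), with a median of -0.20, and 2 fell (6.90%, against 0.481% of all). These were Kif2c, a kinesin of the mitotic spindle, which fell by 0.44 (SE 0.07, adjusted p = 0.0223), and Prc1, a spindle midzone protein, which fell by 0.28 (SE 0.06, adjusted p = 0.0452). Mki67, the proliferation marker, differed by -0.05 ± 0.08 (adjusted p = 0.894). Kif2c and Prc1 lost their calls with any 1 array left out (0.102 to 0.343).

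Among 19 measured cell cycle inhibitors 1 rose (5.26%) and 2 fell (10.5%), with a median of -0.03. Of all genes tested 1.15% rose and 0.481% fell. Gadd45a, a stress-induced growth arrest gene, was at 12.36 with DMSO, 11.90 with BayK8644, 12.80 with exendin-4 and 12.09 with the combination, and fell by 0.59 (SE 0.07, adjusted p = 0.00421). Ccng2, an atypical cyclin linked to arrest, went from 10.94 to 10.49 and, in exendin-4, from 10.92 to 10.08, and fell by 0.65 (SE 0.11, adjusted p = 0.0194). For both the fall was larger in the pair with exendin-4. Their adjusted p became 0.134 and 0.294 without the exendin-4 array and 0.132 and 0.292 without the combination array. Cdkn1a, the inhibitor p21, rose by 0.32 ± 0.06 (adjusted p = 0.0491, between 0.133 and 0.472 without 1 array).

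Genes of beta-cell identity held 1 rise and 1 fall among 14 measured transcription factors (7.14% each, median -0.06). Of all genes tested 1.15% rose and 0.481% fell. Nkx2-2, a homeobox factor that beta cells need, was at 12.86 with DMSO, 12.48 with BayK8644, 13.00 with exendin-4 and 12.61 with the combination. It fell by 0.38 (SE 0.06, adjusted p = 0.0113). Hnf4a, a nuclear receptor mutated in a monogenic diabetes, went from 10.76 to 11.23 and from 10.84 to 11.32 and rose by 0.48 ± 0.07 (adjusted p = 0.0154). Both shifts were small and nearly the same in both pairs, and both calls were lost with any 1 array left out (0.144 to 0.209). Pdx1, a central factor of beta cells, differed by -0.11 ± 0.05 (adjusted p = 0.422). Of 17 measured granule and exocytosis genes Syt13, an atypical synaptotagmin, fell by 0.49 (SE 0.07, adjusted p = 0.00847, between 0.126 and 0.144 without 1 array), and the list's median was -0.03. Txnip, a thioredoxin-binding protein that glucose induces through ChREBP, was at 9.29, 8.75, 9.41 and 8.63 and fell by 0.66 (SE 0.11, adjusted p = 0.0192, between 0.0987 and 0.294 without 1 array). It was the 1 called gene of 9 in its list (11.1%), and Syt13 made up 5.88% of its own. Of all genes tested 0.481% fell.

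Other large falls lay outside these lists. Narf, the nuclear prelamin A recognition factor, was at 8.45 with DMSO, 7.43 with BayK8644, 8.30 with exendin-4 and 7.05 with the combination, and fell by 1.14 (SE 0.18, adjusted p = 0.0154). Rps6ka5, the kinase MSK1 that phosphorylates CREB, went from 8.49 to 7.64 and from 8.24 to 7.50 and fell by 0.80 (SE 0.12, adjusted p = 0.0119). Klf11, a Krüppel-like repressor, went from 9.52 to 8.81 and from 9.35 to 8.65 and fell by 0.71 (SE 0.09, adjusted p = 0.00702). The arrays with BayK8644 were the lower ones in both pairs of each gene. BC025920 (-1.15), Tfcp2l1 (-1.07), Plekhh2 (-0.87), Postn (-0.85), Npnt (-0.78), Ypel5 (-0.68), Fbxl20 (-0.65), Barhl1 (-0.64) and Ripply3 (-0.61) made up the rest of the 15 largest falls with Abca1, Txnip and Ccng2. The lower arrays of Tfcp2l1, a transcription factor, and Postn, the matrix protein periostin, were under the filter level. With 1 array left out, Narf, Rps6ka5, Klf11 and the genes from BC025920 to Ripply3 had adjusted p between 0.0748 and 0.376, so each of these calls was lost.

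**Figure D3:**
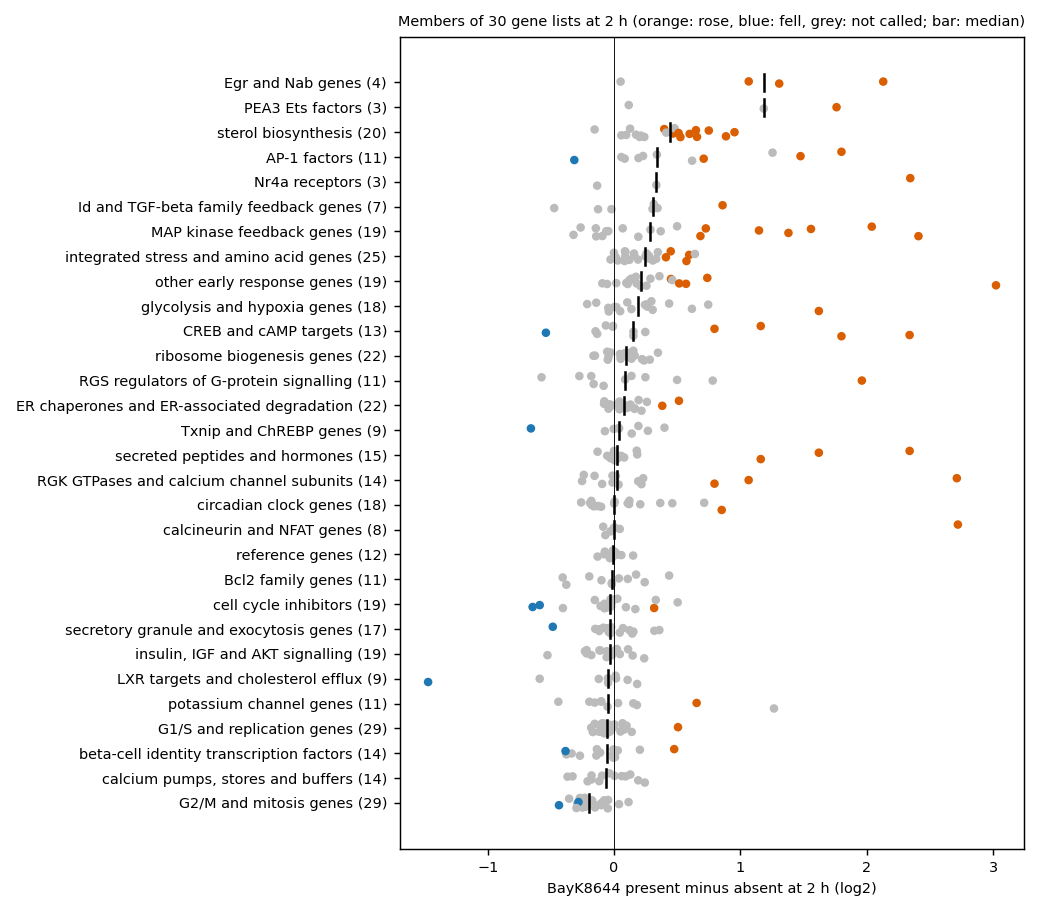
Each point is 1 measured gene of the list named on the y axis (number of measured genes in brackets), placed by its log2 difference with BayK8644 present minus absent at 2 h on the x axis; orange genes rose, blue genes fell, grey genes were not called, and black bars are list medians. The list medians run from -0.20 for G2/M and mitosis genes to 1.19 for Egr and Nab genes, and the list of sterol biosynthesis holds the most called genes, 10 of 20.

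The lists together held 60 of the 173 called genes, and 113 were in none. No gene was called among 19 measured genes of insulin, IGF and AKT signalling (median -0.03), 11 of the Bcl2 family (-0.02), 22 of ribosome biogenesis (0.09) or 12 reference genes (-0.01). Of all genes tested 1.15% rose and 0.481% fell, so the lack of a call in lists this short is no result about them. Of the clock genes 5.56% rose, as did 5.56% of the glycolysis and hypoxia genes. Of 18 measured clock genes Nfil3, a transcriptional repressor, rose by 0.85 ± 0.17 (adjusted p = 0.0418, between 0.265 and 0.365 without 1 array), and of 18 glycolysis and hypoxia genes Adm alone was called. Outside the lists, Lor, which encodes the cornified envelope protein loricrin, rose by 1.75 ± 0.32 (adjusted p = 0.0318), from 6.79 to 7.90 and from 5.90 to 8.30, with an adjusted p of 0.39 without the exendin-4 array and 0.391 without the combination array. Cmtm8, a membrane protein, rose from 1.86 to 3.19 and from 1.88 to 3.69, with all 4 arrays of 2 h under the filter level (difference 1.57 ± 0.18, adjusted p = 0.00312). It entered the test only through arrays with BayK8644 at 6 and 24 h, so its values are a description. Leaving out the exendin-4 array gave an adjusted p of 0.107, as did leaving out the combination array.

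The additive model averages the 2 pairs, and the test of their difference found 0 of 10610 genes (0%) whose response to BayK8644 depended on exendin-4. The lowest adjusted p of that limma test was 0.513, with 3 residual degrees of freedom, and 471 genes had an unadjusted p below 0.05. Of the 173 called genes 6 were among the 471: Apcdd1, Etv5, Il4, Lor, Mt1 and Nab2, named after their values were seen. Il4 differed by 2.14 without exendin-4 and by 3.30 with it, and Lor by 1.11 and 2.40. Nab2 differed by 2.51 without exendin-4 and by 1.76 with it, and Etv5 by 1.98 and 1.54. The first pair of genes thus had the larger difference with exendin-4 and the second pair without it, and none of these contrasts passed the adjustment.

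The difference for BayK8644 at 2 h was tested against that at 0.5 h, and 30 genes differed (0.283%), with 649 at an unadjusted p below 0.05. Of the 122 genes that rose at 2 h, 22 had a larger difference at 2 h than at 0.5 h and 3 a smaller one, and of the 51 that fell 2 were lower at 2 h. The 3 were Fos, Egr1 and Ier2. Fos had a difference of 2.78 at 0.5 h and 0.71 at 2 h, a change of -2.07 ± 0.14 (SE, adjusted p = 0.000592). Egr1 had 2.87 and 1.31, a change of -1.56 ± 0.19 (adjusted p = 0.0154), and Ier2 had 1.69 and 0.57, a change of -1.12 ± 0.15 (adjusted p = 0.0208). In all 3 the difference at 2 h was well under that at 0.5 h. Npas4, with 2.75 at 0.5 h and 3.02 at 2 h, and Nr4a1, with 2.57 and 2.34, were not called in this test (adjusted p = 0.99 and 0.88). The falls were Jun, which was at 0.43 at 0.5 h and changed by -0.75 ± 0.09 (adjusted p = 0.0154), and Barhl1, which changed by -0.74 ± 0.11 (adjusted p = 0.0328). The other 3 genes of the 30 were not called at 2 h; 1 was Dusp1, named after its values were seen, and the others had opposite signs in the pairs and are not reported.

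Feedback and sterol genes were among those with the larger difference at 2 h. Etv5 had a difference of 0.06 at 0.5 h and 1.76 at 2 h, a change of 1.70 ± 0.16 (adjusted p = 0.00393). Rrad had 0.10 and 2.71, a change of 2.61 ± 0.21 (adjusted p = 0.00166), and Nab2 had 0.21 and 2.13, a change of 1.92 ± 0.23 (adjusted p = 0.0154). These genes had little or no difference at the first time and a large one at 2 h. Rrad was tested only because its 2 arrays of 2 h with BayK8644 reached the filter level. Its larger difference at 2 h than at another time was therefore in part a condition of being tested. Dusp4, which already rose at 0.5 h (0.66, adjusted p = 0.0212), changed by 1.38 ± 0.13 (adjusted p = 0.00393). Il4 changed by 2.76 ± 0.35, Spry4 by 1.53 ± 0.20, Nab1 by 1.02 ± 0.14 and Vgf by 0.86 ± 0.12. Of the sterol genes Msmo1 changed by 0.98 ± 0.12 (adjusted p = 0.0154), Idi1 by 0.85 ± 0.13 (adjusted p = 0.046) and Cyp51 by 0.68 ± 0.10 (adjusted p = 0.0328). With 1 array of 2 h left out, 5 or 6 genes differed in place of the 30: 5 without the BayK8644 array, and 6 without the array of DMSO, of the combination or of exendin-4.

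No gene of 10610 (0%) had a difference at 2 h that differed from that at 6 h, by limma with adjustment, while 353 had an unadjusted p below 0.05. Spry1 had a difference of 2.89 at 6 h, Dusp4 of 2.03, Etv5 of 2.03, Npas4 of 3.01 and Abca1 of -1.63, each close to its value at 2 h. Other named genes were further from theirs. Nab2 had 1.09 at 6 h against 2.13 at 2 h, Lor 0.20 against 1.75, Msmo1 0.43 against 0.95 and Narf -0.44 against -1.14. The lack of a call does not show that the differences at the 2 times were equal. Rrad had 0.84 at 6 h against 2.71 at 2 h, a contrast that was not called. Against 24 h, 11 genes differed (0.104%), with 870 at an unadjusted p below 0.05. Of these 2 had risen at 2 h: Rrad, whose difference was 0.28 at 24 h and larger at 2 h by 2.43 (adjusted p = 0.00464), and Nr4a1, whose difference was 1.38 at 24 h and larger at 2 h by 0.96 (adjusted p = 0.0275). For Rrad a larger difference at 2 h was in part a condition of being tested, as stated above. The other 9 had a lower difference at 2 h than at 24 h and were not called at 2 h. Those with the same sign in both pairs at 2 h were Cox6a2, Gast, Ildr2, Lgals3bp, Sparcl1 and Sst, named after their values were seen. The count against 24 h was 0 without the DMSO or the BayK8644 array and 6 without the combination or the exendin-4 array. Residuals of the model were not equal at the times, with a root mean square of 0.051 at 0.5 h, 0.074 at 2 h, 0.070 at 6 h and 0.092 at 24 h.

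**Figure D4:**
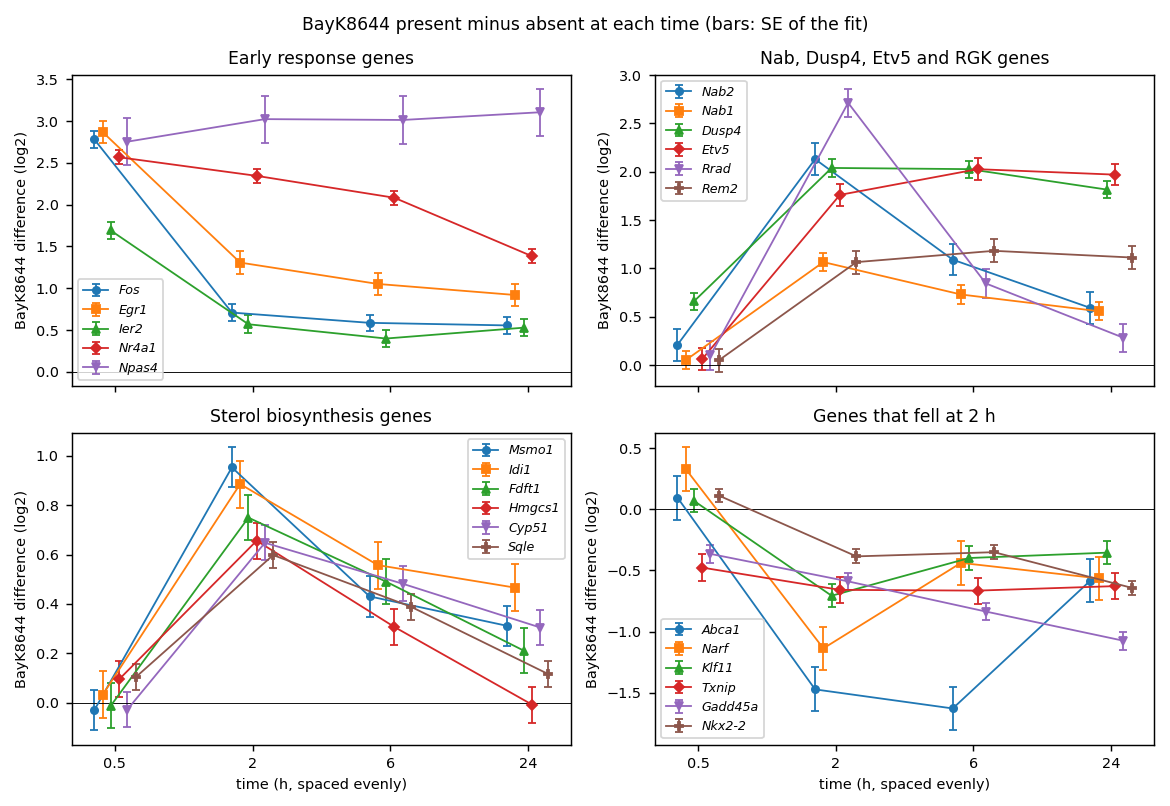
Log2 difference with BayK8644 present minus absent at 0.5, 2, 6 and 24 h (spaced evenly on the x axis) for 4 sets of genes, with bars for the SE of the fit and points shifted sideways for clarity. Fos, Egr1 and Ier2 were highest at 0.5 h, Nab2 and Rrad went from 0.21 and 0.10 at 0.5 h to 2.13 and 2.71 at 2 h, the sterol genes were at or near 0 at 0.5 h, and Abca1 was low at 2 and 6 h.

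The 4 arrays of 2 h were alike in overall signal, with median intensities from 10.5 to 11.2 and with 46.7 to 47.3% of probe sets at the filter level or above, and the number of arrays limits the precision. The 3' minus 5' signal of the Actb control probe sets was 0.67 and 0.80 on the DMSO and exendin-4 arrays and 0.64 and 0.70 on the BayK8644 and combination arrays, and their part in the results was not tested. Of 12 beta-cell markers 10 could be measured and all 10 were above the filter level, while Ins1 and Mafa were not analysed here. Markers of other cell types were mostly at the floor: 0 of 5 leukocyte, 0 of 4 endothelial and 0 of 1 PP cell markers passed the filter. The alpha-cell markers Ttr, Gcg and Irx2, Sst of delta cells, Cela1 of acinar cells, Cftr of duct cells and Vim of fibroblasts did. The summed intensity of the fibroblast markers, of which Vim alone passed, was 1171 and 1231 on the DMSO and exendin-4 arrays and 1435 and 1612 on the BayK8644 and combination arrays. The summed duct-cell markers, of which Cftr alone passed, were at 33.4 and 38.6 without BayK8644 and at 27.7 and 26.8 with it, and the acinar markers, of which Cela1 alone passed, at 700.3 and 714.5 against 616.4 and 662.6. Vim is also made by many cultured cells, Col1a1, Col3a1 and Pdgfrb were at the floor, and the part of any of these cells in the results was not tested.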

How the data were processed

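Total RNA of R7T1 cells was measured on 1-colour Affymetrix arrays, 1 per treatment and time. The authors deposited linear intensity values; GCRMA is the tool listed per the submitters' processing notes, and its version was not given in the sources used here. These were turned into log2 values without a pseudocount or another normalization. GEO's platform annotation gave the names: of 45101 probe sets, 34958 had 1 symbol, 932 several and 9211 none, and 34741 of those with 1 symbol matched RefSeq's gene table (GRCm38.p6). Those with 1 symbol were kept where log2 reached 4 on at least 2 arrays, and a gene was read from its brightest one by mean level. Of the called genes 93 had several probe sets, and in 7 these differed in sign.

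Models were fitted to all 16 arrays in R 4.3.3 with limma 3.58.1 (eBayes with an intensity trend; time, and each agent at each time; 4 residual degrees of freedom), with Benjamini-Hochberg adjusted p-values and a threshold of 0.05. The script was tested on simulated data. Named were the 20 largest rises, the 15 largest falls, up to 5 called members and the most highly expressed uncalled member of each of 30 lists, and 13 fixed genes, less those with opposite signs in the pairs. The members and lists were chosen with earlier results of these data known. Alternatives covered the filter, an added intensity, the arrays fitted, the trend, normalization, probe sets and leaving out arrays; leaving out arrays for the time contrasts was added after the data were seen. Single genes were followed through the alternatives only where named by rule. Promoters are RefSeq windows of 300 bases.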

Additional observations from a re-analysis of the deposited data

Results flagged for a closer look

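The difference for BayK8644 at 2 h differed from that at 0.5 h, by limma's test of the contrast, in 19 of the named genes (Cmtm8 and Rrad passed the filter only through arrays with BayK8644). It was larger at 2 h in Il4 (by 2.76), Rrad (2.61), Nab2 (1.92), Cmtm8 (1.79), Etv5 (1.70), Spry4 (1.53), Dusp4 (1.38), Rhou (1.15), Nab1 (1.02), Msmo1 (0.98), Vgf (0.86), Idi1 (0.85), Cyp51 (0.68) and Chac1 (0.63). It was lower at 2 h in Fos (-2.07), Egr1 (-1.56), Ier2 (-1.12), Jun (-0.75) and Barhl1 (-0.74). Against 24 h it was larger at 2 h in Rrad (2.43) and Nr4a1 (0.96). No group held the 4 or more samples needed to look for a sample far from the others.

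Of 2520 probe sets above the filter that carry no gene symbol or several, and so were outside the gene tests, 5 were called at 2 h in a fit of all 21724 probe sets, in which 125 were called. All 5 rose and 0 fell.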

How the results depend on the processing

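Across all alternatives run, none of the 69 called genes that are named by rule changed the direction of its difference. That was largely fixed in advance. Both pairs had the same sign by rule, and leaving out 1 array of 2 h leaves 1 pair. Of the 69 calls 33 were lost with the arrays of 2 h alone and 24 with each probe set alone. Leaving out the arrays of 0.5 h lost 22. The mean of probe sets and no intensity trend lost 18 each, and no filter 14. The other alternatives with all arrays of 2 h lost 0 to 6 of those tested. The count of 173 called genes was within 1.5 times its value under 9 alternatives (117 to 242). It was 64 with the arrays of 2 h alone, which leave 1 residual degree of freedom, and 88 without the arrays of 0.5 h, whose residuals were the smallest; the cause of either was not tested. With 1 array of 2 h left out it lay between 18 and 47. The 30 genes whose difference at 2 h differed from that at 0.5 h became 10 with no intensity trend in the variance, the cause was not tested, and 5 to 6 with 1 array left out. The 11 against 24 h became 0 to 6 with 1 array left out. Quantile normalization and equal medians gave 210 and 202 called genes, and the median over all genes was then -0.02 and -0.01. No paired analysis was possible because the labels carry no replicate numbers and each treatment and time has 1 array; the exendin-4 term of the model already takes up the shared shift of each pair of 2 h. Levels under log2 4 lie near the floor of the method, so the size of a change there is set in part by the floor.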

Other observations

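Several genes of the NF-kB pathway rose at 2 h; they are on no list fixed for this comparison and were chosen after their values were seen, so the choice supports nothing. NF-kB is a family of dimeric transcription factors held in the cytoplasm by inhibitors that are themselves among its targets. Relb, a family member, was at 8.58 with DMSO, 9.49 with BayK8644, 8.39 with exendin-4 and 9.61 with the combination, a difference of 1.06 ± 0.12 (SE, adjusted p = 0.00264). Nfkb2, the precursor of the partner of Relb, was at 8.69, 9.37, 8.97 and 9.63, a difference of 0.67 ± 0.11 (adjusted p = 0.0176). In both the arrays with BayK8644 were above those without it. The inhibitors Nfkbia and Nfkbie rose by 0.41 ± 0.06 (adjusted p = 0.00989) and 0.50 ± 0.10 (adjusted p = 0.0491), and Bcl3, a nuclear member of the inhibitor family, rose by 0.69 ± 0.12 (adjusted p = 0.021). Tnfrsf12a, the receptor of the cytokine TWEAK, rose by 1.03 ± 0.10 (adjusted p = 0.00162). Tnfaip3 (0.75, adjusted p = 0.1), Nfkbiz (0.39, adjusted p = 0.212), Nfkbib (0.21, adjusted p = 0.547) and Rel (0.24, adjusted p = 0.83) were not called. Leaving out single arrays was not examined for the genes of this paragraph.

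The Nfkbia promoter is shown because its window holds 2 NF-kB motifs, GGACTTTCC and GGAATTTCC, the latter on the other strand (both in capitals). It lies at chr12:55492598-55492897 on the minus strand of GRCm38.p6, and the first match begins at position -178.
Nfkbia: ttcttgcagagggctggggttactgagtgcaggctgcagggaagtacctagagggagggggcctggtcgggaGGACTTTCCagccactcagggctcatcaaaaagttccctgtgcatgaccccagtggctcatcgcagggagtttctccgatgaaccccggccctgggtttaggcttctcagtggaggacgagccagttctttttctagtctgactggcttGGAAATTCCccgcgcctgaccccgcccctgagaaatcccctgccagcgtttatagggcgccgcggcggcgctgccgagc
GGACTTTCC was in the windows of 3 of the 96 genes that rose (3.12%), Myadm, Nfkb2 and Nfkbia, and in 0.471% of all genes tested with a window. GGAATTTCC was in 2 of the 96 (2.08%), Dusp6 and Nfkbia, and in 0.356% of all. These counts are small, the base composition of the windows was not matched, and a match is not evidence of binding. Other motifs searched were also more frequent among the genes that rose. The AP-1 site TGACTCA was in 8.33% of them against 4.06% of all, and the CArG box in 3.12% against 1.54%.

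A few single genes outside the lists, again picked after their values were seen and standing for no group, are given as values. Tubb6, a beta-tubulin, rose by 0.96 ± 0.08 (SE, adjusted p = 0.000601), Lmna, which encodes lamins A and C, by 0.79 ± 0.08 (adjusted p = 0.00197), and the membrane-bending adaptors Baiap2 and Baiap2l1 by 0.62 ± 0.07 (adjusted p = 0.00308) and 0.72 ± 0.12 (adjusted p = 0.0234). Lmna was at 9.57 with DMSO, 10.29 with BayK8644, 9.77 with exendin-4 and 10.63 with the combination, so that both arrays with BayK8644 were the higher ones.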
